A study of Mus musculus with 85 samples.

Results

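The genes described here encode the digestive enzymes of the lysosome, the proteins of its membrane and the proton pump that acidifies it. They were chosen by name, as 33 cathepsins, other hydrolases and partner proteins plus the 23 genes whose symbol begins with Atp6v, and no measured value entered the choice. This gave 56 of the 23608 genes in the tables. RNA-seq was used to measure them in 85 mouse libraries, in 30 groups of strain, cell type and treatment. The study states that its mice were male. The 3 inbred strains were C57BL/6J, BALB/cJ and A/J, and untreated cells of each were Kupffer cells, which are the macrophages resident in liver sinusoids (2 libraries per strain), liver sinusoidal endothelial cells (LSECs, 4 per strain), hepatic stellate cells (3 of C57BL/6J and 4 of each other strain) and hepatocytes (3 of C57BL/6J and 2 of each other strain). Bone-marrow-derived macrophages (BMDMs), grown in vitro from the marrow, had 2 libraries given saline (PBS) and 2 given Kdo2-lipid A (KLA, 100 ng/ml for 2 h), a pure ligand of the receptor TLR4, in each inbred strain and in CB6F1/J, which is the F1 cross between BALB/cJ and C57BL/6J.

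Kupffer cells were also taken 2 h after an injection of lipopolysaccharide (LPS, 0.1 mg per kg) from BALB/cJ (2 libraries), C57BL/6J (2) and CB6F1/J mice (5, against 4 untreated CB6F1/J libraries). The study states that LPS-treated mice and their uninjected controls were fasted. The labels of the untreated libraries compared here do not mention fasting, so its part in comparisons with them cannot be told apart. Kupffer cells of mice kept for 30 weeks on the AMLN diet, which is rich in fat, fructose and cholesterol, had 3 libraries of BALB/cJ and 4 of each of the other strains. The study describes Kupffer cells from mice on a control diet, but the labels call the libraries compared here only controls and give neither diet nor time, so the diet and the age of the mice cannot be told apart here. It also states that C57BL/6 background mice of its liver-disease diet experiments were lab-maintained, while its other inbred mice came from Jackson Laboratories. The labels do not give the source, so in C57BL/6J it cannot be told apart from the diet either. Kupffer cells of NSG hosts had 3 libraries per donor. These hosts were immunodeficient mice that had received busulfan and then blood stem cells of a BALB/cJ, C57BL/6J or CB6F1/J donor. The study describes sorting by histocompatibility type for BALB/cJ and C57BL/6J grafts and does not state such markers for CB6F1/J grafts. Each comparison of Kupffer cells with untreated ones used the same few untreated libraries of its strain, so these comparisons are not independent of each other.

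The lysosome digests what a cell has engulfed and what it recycles from itself. Most of its hydrolases work best at acid pH. The hydrolases are proteases (among them the cathepsins), glycosidases that trim sugars from lipids and proteins, and lipid hydrolases that need small activator proteins. The acid is made by the V-ATPase, a rotary pump in which the V1 sector splits ATP in the cytosol and the V0 sector carries protons through the membrane. TFEB is a transcription factor that binds the CLEAR element, a sequence built around CACGTG, near many genes of this kind. Kupffer cells take up microbes, old red blood cells and lipoproteins from the blood of the sinusoids and depend on this system.

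Promoter windows were taken from RefSeq on GRCm38.p6 (mm10), from 250 bases before to 50 bases after an annotated start site. Of the 56 genes, 43 had at least 1 window, with 51 windows in all. A start site can lie inside the outer limits of its gene, as for Ctsa, Lgmn and Atp6v1a. The core of the CLEAR element, TCACGTG on either strand, was present in a window of 12 of the 43 genes (27.9%) and of 1160 of all 27025 genes with a window (4.29%). The shorter CACGTG, which lies within TCACGTG, was present for 14 of the 43 genes (32.6%) against 2187 of all (8.09%). The windows of the 12 genes held 20 matches to TCACGTG, of which 18 lay before the start site, and 9 matches were the palindrome TCACGTGA. The following matches are shown because their sequence is shared by the 12 genes and because the genes shown return in the comparisons. Each is written 5′ to 3′ along the gene, with the match in capitals.

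Ctsa (chr2:164833750-164833777, plus strand): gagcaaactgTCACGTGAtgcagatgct
Ctsd (chr7:142387909-142387936, minus strand): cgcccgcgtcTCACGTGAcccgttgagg
Gla, farther match (chrX:134601216-134601243, minus strand): aagcgattgaTCACGTGAgcatctacgt
Gla, nearer match (chrX:134601183-134601210, minus strand): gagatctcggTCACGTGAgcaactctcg
Lamp1 (chr8:13159089-13159115, plus strand): gggcaagataTCACGTGgtccagcgcc
Mcoln1 (chr8:3500463-3500490, plus strand): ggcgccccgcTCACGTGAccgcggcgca
Lgmn (chr12:102439126-102439152, minus strand): ggaatgtctgTCACGTGgtccatttta
Atp6v1a (chr16:44139374-44139401, minus strand): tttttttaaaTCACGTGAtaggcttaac
Atp6v0d1 (chr8:105566051-105566078, minus strand): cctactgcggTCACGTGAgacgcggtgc
Atp6v0e (chr17:26676388-26676415, plus strand): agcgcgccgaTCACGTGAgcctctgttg

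The matches shown lie between 3 and 228 bases from the start site of their window. A match is only a run of letters in a window, and no binding was measured here. Genes with and without TCACGTG had like medians. In Kupffer cells against LSECs, for example, the median log2 fold change was 1.41 over the 12 genes with a match and 1.44 over the 26 tested genes without. The promoters of Atp6v1b2, Atp6v0c-ps2, Ctsb, Atp6v0a2, Ctse, Atp6v1c1, Atp6v1g1, Atp6v1h, Atp6v0d2, Asah1, Ctsh, Ctsw and Npc1 were not analysed here.

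Libraries held 5.25 to 24.22 M (mega) counted reads in Kupffer cells of the inbred strains, 6.38 to 14.01 M in LSECs, 8.1 to 12.69 M in stellate cells, 9.19 to 21.45 M in hepatocytes and 22.02 to 42.78 M in BMDMs. Untreated Kupffer cells held their defining markers, while LSEC and stellate libraries also held markers of other liver cells. Summed over 8 genes (Clec4f, Vsig4, Timd4, Marco, Cd5l, C1qa, C1qb and Folr2), Kupffer markers stood at 21100 to 26600 TPM (transcript abundance corrected for gene length and library size) in untreated Kupffer cells of the inbred strains and at no more than 320 in LSECs. Hepatocyte markers reached 119 to 478 in these Kupffer libraries and 863 to 8470 in LSECs, and Kupffer markers reached 320 to 10100 in stellate cells.

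The lysosomal set made up far more of the messenger RNA in macrophages than in the other liver cells. Of the TPM summed over all genes, the 56 genes took 5.06% ± 0.171 (SD, n = 6) in Kupffer cells and 5.37% ± 0.738 (n = 6) in BMDMs. They took 1.53% ± 0.462 (n = 11) in stellate cells, whose libraries held Kupffer markers, 1.38% ± 0.0954 (n = 12) in LSECs and 0.452% ± 0.0198 (n = 7) in hepatocytes. In bulk libraries such as these, fewer cells of a type and less RNA per cell cannot be told apart. Of the 56 genes, 50 had a mean above 8 TPM in at least 1 cell type and 36 in all 5. A difference of more than 4 times between highest and lowest cell type was seen for 46 of the 56. That count includes genes near 0 TPM in every cell type, and the share over all genes was not computed. The highest mean was in BMDMs for 25 of the 50, in Kupffer cells for 14, in LSECs for 7, in stellate cells for 3 and in hepatocytes for 1. Among all 11086 genes above 8 TPM, BMDMs held the highest mean for 29.7% and Kupffer cells for 13.6%. Hepatocytes held the lowest mean for 40 of the 56, and here too the share over all genes was not computed.

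**Figure D1:**
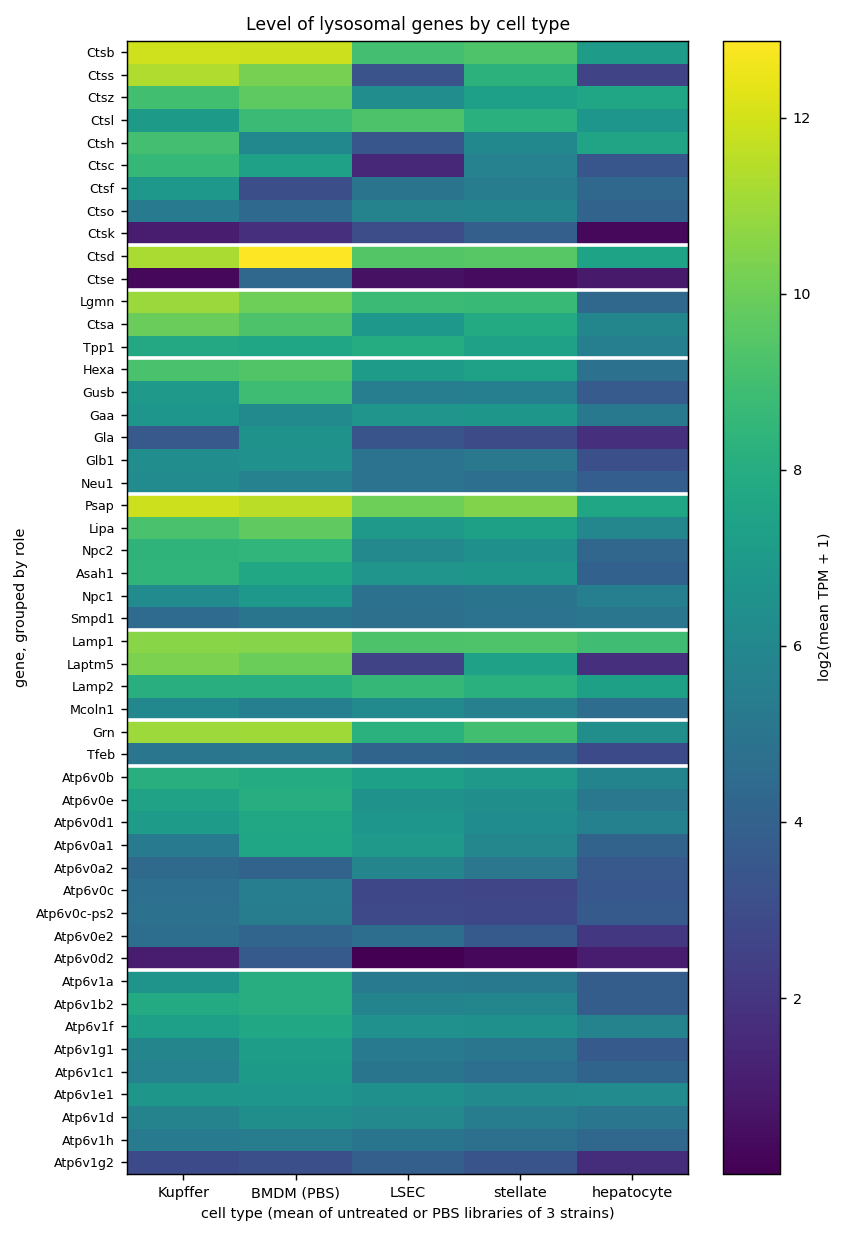
Mean level of each lysosomal gene above 8 TPM in at least 1 cell type (rows, grouped by role and split by white lines) in untreated Kupffer cells, LSECs, stellate cells and hepatocytes and in PBS-treated BMDMs (columns), as log2(mean TPM + 1) over the libraries of the 3 inbred strains. The left columns, Kupffer cells and BMDMs, are brightest for Ctsb, Ctsd, Ctss, Psap and Grn, and the hepatocyte column is darkest in most rows.

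Among cysteine cathepsins, Ctsb, a broad protease of the lysosome, was the highest in Kupffer cells at 3971 ± 770 TPM (SD, n = 6) and in BMDMs at 3841 ± 694, against 652 ± 347 in stellate cells and 139 ± 20.7 in hepatocytes. Ctss, the cathepsin that trims the invariant chain of MHC class II, was at 2590 ± 165 TPM in Kupffer cells and 1209 ± 206 in BMDMs, but at 8.99 ± 9.61 in LSECs and 5.34 ± 1.8 in hepatocytes. Ctsc, which activates granule serine proteases, was at 376 ± 24.8 TPM in Kupffer cells, 164 ± 18.2 in BMDMs, 9.9 ± 4.51 in hepatocytes and 1.71 ± 1.81 in LSECs. For these genes the ranges of Kupffer cells and LSECs lay far apart. The lowest Kupffer library of Ctss stood at 2339 TPM and the highest LSEC library at 31.

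Not every cathepsin had this order. Ctsl was highest in LSECs at 612 ± 122 TPM (n = 12), then in BMDMs at 443 ± 35.3, and stood at 127 ± 10.9 in Kupffer cells. Ctsk, a collagen-degrading cathepsin known from osteoclasts, was low throughout and highest in stellate cells at 13.7 ± 4.16 TPM, against 1.01 ± 0.505 in Kupffer cells. Ctsh, an aminopeptidase, was at 520 ± 174 TPM in Kupffer cells, 182 ± 26.1 in hepatocytes and 64.4 ± 39.4 in BMDMs. Ctsf was at 114 ± 16.5 TPM in Kupffer cells and only 7.52 ± 4.4 in BMDMs, with no overlap between the libraries. The aspartic cathepsin Ctsd showed the reverse, with 7501 ± 1151 TPM in BMDMs and 2403 ± 194 in Kupffer cells. Its relative Ctse was at 18.9 TPM on average in BMDMs, where strains differed, and under 1 TPM in the other cell types.

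Of the remaining hydrolases and partners, Psap, the precursor of the saposins that present sphingolipids to their hydrolases, was at 3817 ± 576 TPM in Kupffer cells and 3022 ± 888 in BMDMs. Grn, progranulin, was at 2016 ± 173 and 2094 ± 232 TPM in these cells. Lgmn, the asparaginyl endopeptidase that processes cathepsins, was at 1962 ± 458 TPM in Kupffer cells, 443 ± 69 in LSECs and 19.6 ± 6.1 in hepatocytes. Laptm5, a lysosomal membrane protein of blood cells, was at 1288 ± 88.2 TPM in Kupffer cells and 5.26 ± 5.94 in LSECs. The structural membrane protein Lamp1 varied least among these, from 1549 ± 166 TPM in Kupffer cells to 479 in hepatocytes. Gla, the galactosidase that clears globotriaosylceramide, was at 93.6 ± 16.8 TPM in BMDMs and 11.3 ± 4.97 in Kupffer cells. Tfeb itself was at 32.6 ± 2.18 TPM in Kupffer cells, 35.1 ± 6.61 in BMDMs and 6.54 in hepatocytes.

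Within the V-ATPase, transcript levels of alternative subunits differed between cell types. Among the V0 a subunits, which route the pump to a membrane, Atp6v0a1 was at 186 ± 37 TPM in BMDMs, 121 ± 14.4 in LSECs and 38.4 ± 7.43 in Kupffer cells, and Atp6v0a2 was highest in LSECs at 57 TPM. Atp6v0d2, the d subunit known from osteoclasts and dendritic cells, was at 9.33 to 14 TPM in BMDMs and 0.645 to 1.22 in Kupffer cells. The common d subunit Atp6v0d1 was at 136 TPM in Kupffer cells. Of the V1 subunits, Atp6v1b2, the B subunit of the catalytic ring in most tissues, was at 235 TPM in Kupffer cells, 261 in BMDMs and 12.8 in hepatocytes. The catalytic A subunit Atp6v1a was at 263 TPM in BMDMs and 99.5 in Kupffer cells. The tissue-restricted subunits Atp6v0a4, Atp6v1b1, Atp6v1c2, Atp6v1e2 and Atp6v1g3 did not pass 8 TPM in any of the 5 cell types.

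Each difference was tested in edgeR by quasi-likelihood, scaled by TMM. A gene was called when its adjusted p was under 0.05 and its log2 fold change above 1 in either direction. Fold changes are log2 values ± SE. Against LSECs, 30 of 48 tested genes of the set were called higher in Kupffer cells and 4 lower, where 18.3% and 20% of all 9826 genes tested were called higher and lower. The median was 1.62 over the set and 0.01 over all genes. The largest differences were in Ctss (8.71 ± 0.58, adjusted p = 3.4e-10), Laptm5 (8.54 ± 0.59), Ctsc (8.34 ± 0.5) and Ctsh (6.02 ± 0.41). Of the 6 glycosidases, 4 were called higher. The lower calls were Ctsk (-2.51 ± 0.25), Ctsl (-1.92 ± 0.13), Atp6v0a1 (-1.35 ± 0.08) and Atp6v0a2 (-1.14 ± 0.06).

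Against stellate cells 31 of 48 were called higher and 2 lower (15% and 21.5% of all genes), with a median of 1.42 against -0.02. Ctss (3.72 ± 0.41), Ctsh (3.67 ± 0.37) and Laptm5 (3.59 ± 0.38) led, and Ctsk (-3.57 ± 0.3) and Ctsl (-1.01 ± 0.14) were lower. The call of Ctsl, at the fold limit, was lost in 12 of 23 alternatives (DESeq2 among them, with values from -1.19 to -0.79). Kupffer markers were present in the stellate libraries, as given above, and their part in these smaller differences was not tested. Against hepatocytes 25 of 46 were called higher and 1 lower (29.6% and 30.7% of all genes), with a median of 1.15 against -0.01. Laptm5 (8.04 ± 0.3), Ctss (7.83 ± 0.23) and Lgmn (5.59 ± 0.15) led, and Smpd1, acid sphingomyelinase, was the gene called lower (-1.72 ± 0.09). Scaling by library size alone moved the median of all genes in the comparison with hepatocytes to 0.92 and the share of all calls that were higher from 49.1% to 70.5%. On that scale 38 genes of the set were then called higher and none lower, and Smpd1 was no longer called.

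Against BMDMs the set was split. Of 49 tested genes, 6 were called higher and 12 lower in Kupffer cells (14.8% and 16.4% of all genes), with a median of 0.11 against -0.01. Higher were Ctsf (4.29 ± 0.24), Ctsh (3.36 ± 0.18), Ctsc (1.41 ± 0.08), Ctss (1.33 ± 0.11), Ctso (1.15 ± 0.1) and Lgmn (1.12 ± 0.13), all of them cysteine proteases. Lower were Ctse (-5.95 ± 0.62), Atp6v0d2 (-3.28 ± 0.17), Gla (-2.91 ± 0.15), Atp6v0a1 (-2.06 ± 0.1), Gusb, the glucuronidase (-1.79 ± 0.11), Ctsl (-1.6 ± 0.09), Ctsd (-1.42 ± 0.11) and 5 further V-ATPase genes between -1.25 and -1.12. With library size scaling the counts were 4 higher and 12 lower, the median of all genes was -0.22, and 36.9% of all calls were higher in place of 47.4%.

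Between strains, few genes of the set passed both limits in untreated Kupffer cells, and the same V0 genes were called in each cell type. C57BL/6J differed from BALB/cJ in 5 of 46 tested genes (5.93% of all genes called) and from A/J in 3 of 46 (4.63%). A/J differed from BALB/cJ in 1 of 44 (3.17%). Most of these calls were the V0 genes Atp6v0c, Atp6v0c-ps2 and Atp6v0e2, with Gla and Ctsh as the others. By the adjusted p alone, BALB/cJ against C57BL/6J gave 17 of the 46 genes as higher and 5 as lower (14% and 15.1% of all genes).

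Atp6v0c (chr17:24163865-24169678), which encodes the proteolipid of the proton-carrying ring, was near 0 in A/J and BALB/cJ and high in C57BL/6J. In Kupffer cells the libraries stood at 2.91 and 2.46 TPM in BALB/cJ, 2.93 and 1.85 in A/J and 75.2 and 67.1 in C57BL/6J. The pseudogene Atp6v0c-ps2 (chr6:37805975-37807107), annotated as transcribed, stood at 2.03 and 1.71 TPM in BALB/cJ, 1.57 and 1.2 in A/J and 83.1 and 74.7 in C57BL/6J. Both genes moved together and the strain groups did not overlap. The log2 difference of BALB/cJ from C57BL/6J was -4.7 ± 0.15 for Atp6v0c (edgeR adjusted p = 1.6e-06) and -5.37 ± 0.16 for Atp6v0c-ps2. The same pair was called in BMDMs, LSECs, stellate cells, hepatocytes and the donor cells of NSG hosts. These values are uncertain. The pseudogene is a near copy of the gene, reads of A/J and BALB/cJ were mapped to genomes rebuilt from their variants while C57BL/6J reads were mapped to mm10 itself, and the sources used here do not say how reads that match both copies were counted. The part of mapping in the difference was not tested.

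Atp6v0e2 (chr6:48537569-48541801), a small V0 subunit with the close relative Atp6v0e, showed the opposite order. In Kupffer cells it stood at 34 and 38.9 TPM in BALB/cJ, 32.4 and 36 in A/J and 0.806 and 1.77 in C57BL/6J (11 and 21 reads). In BMDMs it stood at 27.3 and 26.9 TPM in BALB/cJ, 23.9 and 25.8 in A/J and 0.05 and 0.125 in C57BL/6J (2 and 7 reads). The strains did not overlap in either cell type. The difference of BALB/cJ from C57BL/6J was 4.85 ± 0.27 in Kupffer cells (edgeR adjusted p = 2.5e-05) and 8.14 ± 0.26 in BMDMs, a value that rests on those few C57BL/6J reads. In LSECs, C57BL/6J libraries stood at 4.65 to 8.36 TPM and the others at 30 to 38.9 TPM. In hepatocytes, C57BL/6J libraries held 0, 0 and 2 reads while BALB/cJ stood at 7.85 and 9.9 TPM, so no fold is given. The level of Atp6v0e, at 168 TPM in Kupffer cells on average, was not called between strains in Kupffer cells.

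**Figure D2:**
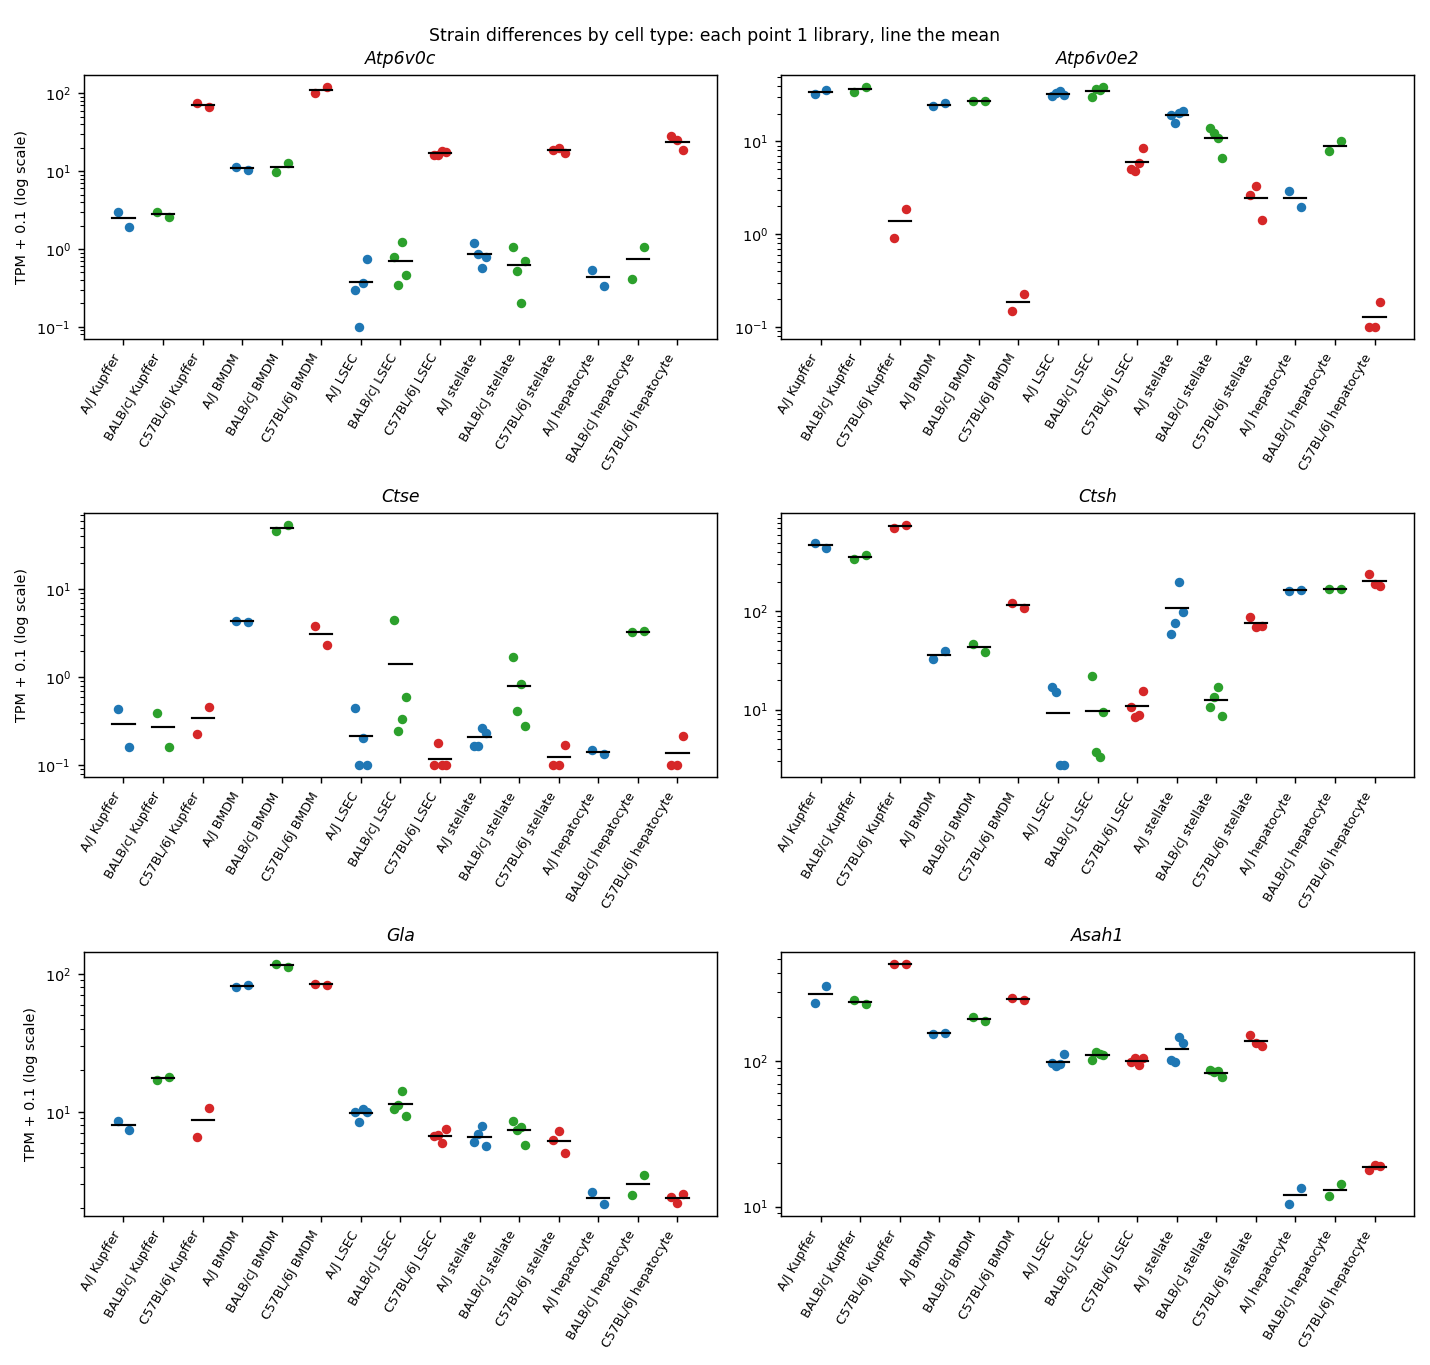
Level of 6 lysosomal genes as TPM + 0.1 on a log scale (vertical axis) in each untreated or PBS library of A/J (blue), BALB/cJ (green) and C57BL/6J (red) in 5 cell types (horizontal axis). Each point is 1 library and each line the mean, and C57BL/6J stands above the other strains for Atp6v0c and under them for Atp6v0e2 in every cell type.

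Ctsh was higher in C57BL/6J. Kupffer libraries stood at 338 and 375 TPM in BALB/cJ, 497 and 443 in A/J and 712 and 754 in C57BL/6J. The difference of BALB/cJ from C57BL/6J was -1.03 ± 0.1 (edgeR adjusted p = 0.00046), at the fold limit. In BMDMs C57BL/6J was again highest, with 46.9 and 38.7 TPM in BALB/cJ, 32.4 and 39.2 in A/J and 122 and 108 in C57BL/6J. Asah1, acid ceramidase, stood at 468 TPM in both C57BL/6J Kupffer libraries and at 247 to 328 in the other strains. BALB/cJ was lower by the adjusted p without the fold (-0.87 ± 0.09), and also among donor cells in NSG hosts (-0.53 ± 0.11).

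Gla, on the X chromosome, was highest in BALB/cJ Kupffer cells at 17.1 and 17.9 TPM, against 8.46 and 7.33 in A/J (-1.17 ± 0.17 for A/J minus BALB/cJ, edgeR adjusted p = 0.0046). C57BL/6J stood at 6.52 and 10.6 TPM. Without the second A/J library this call of Gla was lost. Between BALB/cJ and C57BL/6J, leaving out any 1 of the 4 libraries left 3 or 4 of the 5 calls, with 3 left without the first BALB/cJ library.

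In BMDMs a further group of genes separated BALB/cJ. Ctse (chr1:131638314-131675507) stood at 45.9 and 53.3 TPM in BALB/cJ, 4.31 and 4.2 in A/J, 3.74 and 2.24 in C57BL/6J and 11 and 9.77 in CB6F1/J. The BALB/cJ libraries lay above all others, by 4.08 ± 0.2 against C57BL/6J (edgeR adjusted p = 2.2e-08). Ctsf stood at 12.4 and 13.8 TPM in BALB/cJ, 4.62 and 3.72 in A/J and 4.56 and 6.06 in C57BL/6J. Psap stood at 3832 and 4042 TPM in BALB/cJ and 1942 and 2007 in A/J (-1.08 ± 0.09 for A/J minus BALB/cJ). In all, C57BL/6J BMDMs differed from BALB/cJ in 6 of 49 tested genes (4.55% of all genes called) and from A/J in 4 of 47 (5.54%), and A/J differed from BALB/cJ in 3 of 47 (4.35%). By the adjusted p alone, 32 of the 47 genes stood lower in A/J BMDMs than in those of BALB/cJ and 0 stood higher, where 22.6% of all genes were lower and 22.5% higher, and the median of the set was -0.36. With library size scaling the median was -0.28 and 29 genes were lower and 0 higher, while the share of higher among all fold calls went from 33.7% to 44.1% here and from 40% to 50.1% for A/J minus C57BL/6J.

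The V0 genes were also called in each of the other liver cells. In LSECs 3 of 47 tested genes differed over the strains (6.53% of all genes), namely Atp6v0c, Atp6v0c-ps2 and Atp6v0e2. In hepatocytes 4 of 42 differed (10.9%), the same V0 genes and Npc1, the cholesterol exporter, at 25.8 and 26.6 TPM in BALB/cJ, 61 and 67.5 in A/J and 47.7 to 50.6 in C57BL/6J (1.39 ± 0.15 for A/J minus BALB/cJ, edgeR adjusted p = 0.0018). In stellate cells 11 of 47 differed (14.6%), and those beside the V0 genes were higher in A/J: Ctsh (3.14 ± 0.39), Ctss (2.72 ± 0.47), Laptm5 (2.71 ± 0.43), Ctsc, Ctsb, Lgmn, Hexa and Grn. Summed Kupffer markers in the same libraries stood at 320 to 1290 TPM in BALB/cJ, 3310 to 10100 in A/J and 1900 to 2560 in C57BL/6J, with Ctss at 301, 368, 1066 and 490 TPM in A/J and 40.8 to 133 in BALB/cJ. Their part in the stellate difference was not tested.

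In CB6F1/J cells both alleles of a gene outside the X chromosome share 1 nucleus, and reads that span a variant were assigned to each allele. For some genes the deposited counts of both alleles were nearly identical (145 of 3636 genes with at least 10 such reads in every library had a squared difference between alleles, divided by their sum, that averaged under 0.1, with Tpp1 among the lysosomal genes), and Tfeb stood at exactly 50% in each BMDM and NSG host library, so a share near 50% need not mean balanced alleles. In untreated Kupffer cells 4 of 28 tested genes were called between alleles (3.78% of all genes). The BALB/cJ allele of Atp6v0e2 held 88% ± 3.6 of reads (SD, n = 4), and that of Atp6v0c held 20.9% ± 1.6. The BALB/cJ allele of Atp6v0c-ps2 held 14.2% ± 1.2, and that of Ctso, a little-studied cysteine cathepsin, held 70.2% ± 4.8. The log2 differences of the BALB/cJ from the C57BL/6J allele were 2.89 ± 0.14, -1.9 ± 0.07, -2.58 ± 0.08 and 1.2 ± 0.25, so each V0 gene leaned to the parent in which it was high. Ctso rested on a mean of 49.8 variant reads per library.

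After LPS 2 of 26 tested genes were called (5.43% of all genes), in cells from NSG hosts 3 of 28 (4%), in PBS-treated BMDMs 3 of 27 (2.6%) and in KLA-treated BMDMs 2 of 25 (3.15%). Atp6v0c and Atp6v0c-ps2 were called in each. The BALB/cJ share of Atp6v0c was 12.2% ± 0.92 after LPS (n = 5), 14% ± 1.9 in NSG hosts (n = 3) and 4.77% ± 0.77 in PBS-treated BMDMs (n = 2). Ctse in PBS-treated BMDMs leaned to BALB/cJ, with 85.6% ± 0.58 of reads (n = 2) and a difference of 2.6 ± 0.13 (edgeR adjusted p = 0.0021). Ctsh, higher in C57BL/6J among the parents, had a BALB/cJ share of 48.2% ± 0.11 in Kupffer cells and a difference of -0.09 ± 0.07. With a mean of 4139.6 variant reads per library, its shares spread less than counting alone would give, so both alleles may hold the same reads. Whether the alleles of Ctsh were balanced cannot be told from these counts. Ctsb had a BALB/cJ share of 50.9% ± 0.44 in Kupffer cells and 61.1% ± 2.3 in PBS-treated BMDMs, where its difference passed the adjusted p at 0.68 but not the fold. Gla lies on the X chromosome and was not tested. Its reads assigned to BALB/cJ were 86.6% ± 2.7 in untreated Kupffer cells and 49.4% ± 9.8 in those from NSG hosts. The study states that its mice were male and that the F1 mothers were BALB/cJ, so such cells carry only the BALB/cJ X. These shares thus do not measure allele balance, and the source of the C57BL/6J reads was not tested.

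**Figure D3:**
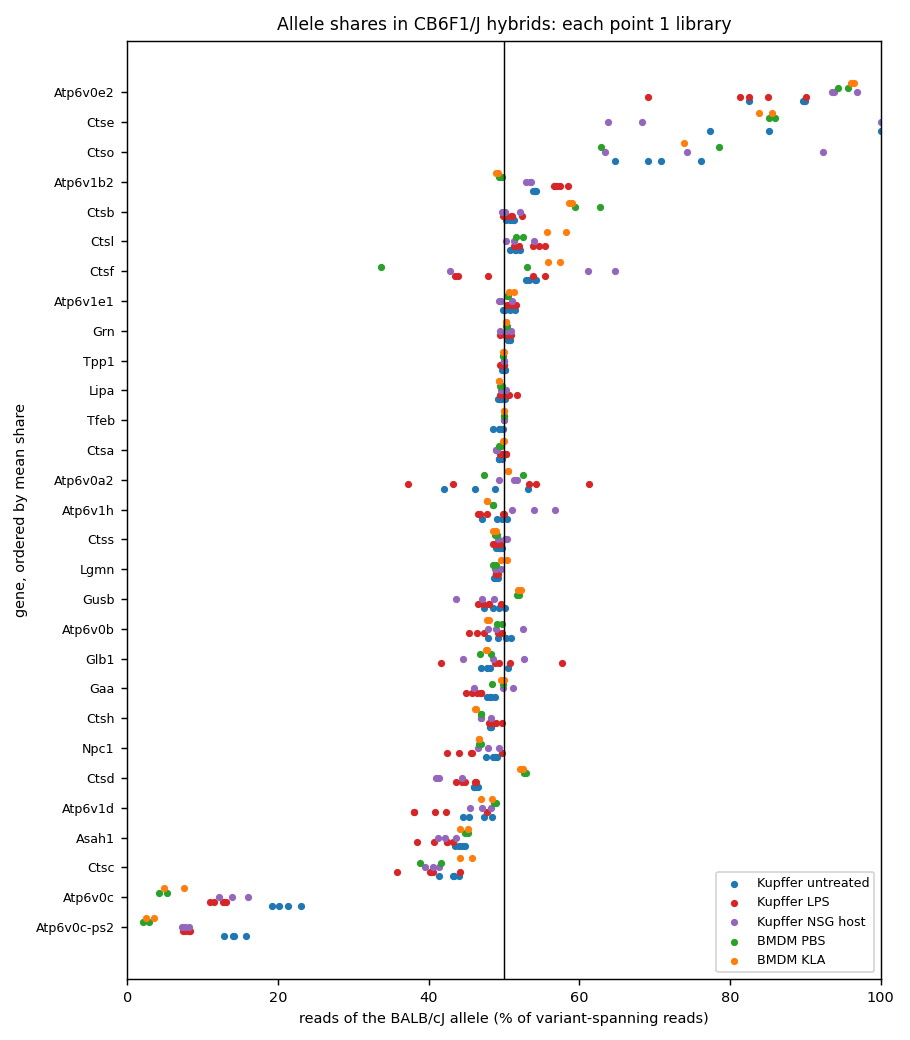
Share of variant-spanning reads from the BALB/cJ allele in percent (horizontal axis, with a line at 50) for each tested lysosomal gene (rows, ordered by mean share), each point 1 CB6F1/J library with at least 10 such reads, coloured by cell type and treatment. Atp6v0e2, Ctse and Ctso lie to the right, Atp6v0c and Atp6v0c-ps2 far to the left, and most other genes within a few points of the line.

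LPS addressed how Kupffer cells respond to a bacterial product. Tfeb fell most of the set in all 3 strains and Smpd1 fell too, while on the TMM scale several genes of the V1 sector rose. In BALB/cJ 2 of 44 tested genes were called higher and 5 lower (16% and 16.2% of all genes). In C57BL/6J 6 of 45 were higher and 2 lower (18.3% and 19.7%), and in CB6F1/J 9 of 46 were higher and 4 lower (18.7% and 20.7%). The medians of the set were -0.09, 0.04 and 0.19, against -0.04, -0.04 and -0.02 over all genes. In each strain the called share of the set was under that of all genes.

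Tfeb stood at 31.6 and 30.2 TPM in untreated BALB/cJ Kupffer cells and at 3.72 and 3.47 after LPS. In C57BL/6J it went from 31.7 and 35.4 to 1.68 and 0.594 TPM. In CB6F1/J the 4 untreated libraries stood at 27.8 to 30 TPM and the 5 LPS libraries at 0.489 to 1.58. Untreated and LPS libraries were far apart in each strain. The log2 changes were -2.65 ± 0.18 (edgeR adjusted p = 8.1e-05), -4.31 ± 0.37 (0.001) and -4.26 ± 0.24 (7.5e-09). Smpd1 fell from 26.4 and 22.9 to 7.05 and 6.59 TPM in BALB/cJ, and from 22.1 and 19.1 to 6.42 and 4.1 in C57BL/6J. In CB6F1/J it fell from 18.2 to 22.4 down to 3.93 to 5.11. These changes were -1.4 ± 0.18, -1.42 ± 0.23 and -1.5 ± 0.11.

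Atp6v1e1, the E subunit of the stalk that holds V1 to V0, rose in all strains. It stood at 118 and 107 TPM untreated and 244 and 260 after LPS in BALB/cJ, and at 137 and 120 against 309 and 272 in C57BL/6J. In CB6F1/J it stood at 122 to 133 untreated and 308 to 392 after LPS. The changes were 1.61 ± 0.14, 1.73 ± 0.14 and 2.16 ± 0.11, with no overlap. Atp6v1a, the catalytic subunit, rose by 1.08 ± 0.12, 1.26 ± 0.25 and 1.64 ± 0.1. Atp6v1b2 was called in C57BL/6J (1.16 ± 0.19) and CB6F1/J (1.35 ± 0.07) and passed the adjusted p alone in BALB/cJ (0.64 ± 0.12, adjusted p = 0.0046). Over the V1 genes, 5 of 8 tested passed the adjusted p alone as higher in BALB/cJ, 5 of 8 in C57BL/6J and 7 of 8 in CB6F1/J (29.4%, 28.6% and 39.4% of all genes), and 0 as lower (29.4%, 30.4% and 41.9%). Their medians were 0.56, 0.83 and 1.12. In the V0 sector Atp6v0a1 went from 51.2 and 42.5 to 9.79 and 13 TPM in BALB/cJ, a change of -1.6 ± 0.2. It was called in CB6F1/J (-1.43 ± 0.11) and missed the threshold in C57BL/6J (-0.85 ± 0.3, adjusted p = 0.056). Atp6v0c and its pseudogene, uncertain as given above, were among the genes called higher in C57BL/6J and CB6F1/J. Atp6v0e2 was also called lower in BALB/cJ and CB6F1/J, and it stayed called with library size scaling (-2.14 and -1.92).

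**Figure D4:**
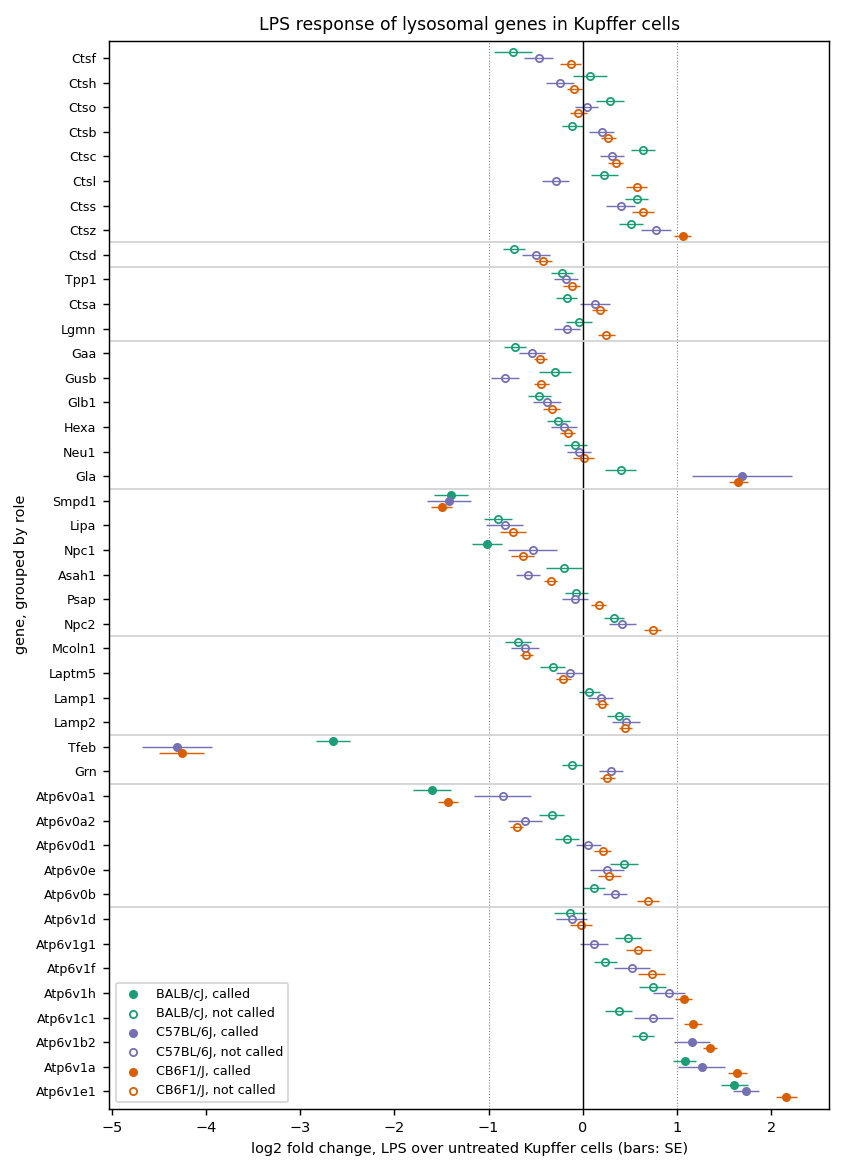
Log2 fold change after LPS over untreated Kupffer cells (horizontal axis, bars the SE, scaled by TMM) for each lysosomal gene tested in all 3 strains (rows, grouped by role), with BALB/cJ in green, C57BL/6J in purple and CB6F1/J in orange and filled points for called genes. Tfeb lies farthest to the left, between -4.31 and -2.65, and Atp6v1e1 lies between 1.61 and 2.16.

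The lipid hydrolases and their partners, a group of 6, had medians of -0.55, -0.55 and -0.49. Lipa, the acid lipase that frees cholesterol from lipoproteins, stood at 531 and 554 TPM untreated and 194 and 231 after LPS in BALB/cJ, and passed the adjusted p in each strain without the fold (-0.9 ± 0.15, -0.83 ± 0.2 and -0.74 ± 0.14). Npc1 was called in BALB/cJ (-1.02 ± 0.16), at the fold limit, and the call was lost in 5 of 10 alternatives, DESeq2 among them. Mcoln1, the calcium channel of the lysosomal membrane, passed the adjusted p as lower in each strain, at -0.69 ± 0.14, -0.61 ± 0.15 and -0.6 ± 0.07. Gla was called higher in C57BL/6J (1.69 ± 0.53) and CB6F1/J (1.65 ± 0.1). In C57BL/6J its libraries were 6.52 and 10.6 TPM untreated and 10.8 and 26.3 after LPS, so the groups nearly touched. The effect of LPS did not differ between BALB/cJ and C57BL/6J at this depth for any of 46 tested genes by edgeR (0.11% of all genes called). At an unadjusted p under 0.05 there were 4, and DESeq2 called 1. With library size scaling there were again 0, and the share of higher among all calls of this test went from 33.3% to 64.7%.

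The scale matters for these values. Scaling by library size in place of TMM moved the median of all genes to -0.5 in BALB/cJ, -0.61 in C57BL/6J and -0.74 in CB6F1/J, and 25.4%, 23.7% and 20% of all calls were then higher, against 49.7%, 48.1% and 47.4%. Of the 8 tested V1 genes, 2, 3 and 5 then passed the adjusted p as higher and 1 as lower in each strain, namely Atp6v1d (-0.61, -0.7 and -0.74), with V1 medians of 0.1, 0.24 and 0.4 in BALB/cJ, C57BL/6J and CB6F1/J. On that scale 1 gene of the set was called higher in each strain, Atp6v1e1 (1.14, 1.16 and 1.44), and 10, 12 and 13 were called lower. Atp6v1a then stood at 0.62, 0.66 and 0.92, and Ctsd, Gaa, Lipa and Mcoln1 joined Tfeb and Smpd1 among the genes called lower in each strain. No gene called under TMM changed sign, but some that passed the adjusted p alone did, as Lamp2 and Npc2 in BALB/cJ and C57BL/6J and Ctsb, Ctsc, Ctss, Grn and Lamp1 in CB6F1/J. In TPM, likewise, the share of the set fell from 5.26% to 3.58% in BALB/cJ, from 4.93% to 3.32% in C57BL/6J and from 4.85% to 3.21% in CB6F1/J. Neutrophil markers were higher after LPS (40.6 to 204 TPM, against at most 7.71 in untreated libraries) and summed Kupffer markers were lower (14400 to 19400 against 20600 to 26600). Hepatocyte markers stood at 616 to 1490 TPM in C57BL/6J after LPS and 165 to 442 before. Their part in these changes was not tested.

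KLA addressed the same receptor in BMDMs, where Tfeb fell and few other genes of the set were called. In A/J 0 of 45 tested genes were called higher and 2 lower (7.43% and 4.68% of all genes). The counts were 0 and 2 of 48 in BALB/cJ (8.74% and 5.4%), 0 and 3 of 46 in C57BL/6J (9.61% and 7.48%) and 0 and 1 of 45 in CB6F1/J (8.18% and 4.14%). Tfeb was called in each. It went from 28.3 and 26.3 to 7.08 and 7.78 TPM in A/J, and from 35.4 and 36.8 to 12.9 and 11.1 in BALB/cJ. In C57BL/6J it went from 41.5 and 42.2 to 9.18 and 8.05, and in CB6F1/J from 32.8 and 33.1 to 10.9 and 9.32. No KLA library overlapped a PBS library. The changes were -1.6 ± 0.09, -1.34 ± 0.12, -2.06 ± 0.11 and -1.44 ± 0.09 (edgeR adjusted p at most 5.7e-05).

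Atp6v0d2 was the other gene called in all 3 inbred strains, with 11.2 and 10.6 TPM against 4.13 and 4.43 in A/J, 10.4 and 9.33 against 4.94 and 2.84 in BALB/cJ and 14 and 13.2 against 4.95 and 4.49 in C57BL/6J. Its changes were -1.08 ± 0.11, -1.11 ± 0.24 and -1.31 ± 0.14. Atp6v1g2, a minor G subunit, was called in C57BL/6J (-1.01 ± 0.18), and that call was lost in 5 of 9 alternatives, DESeq2 among them. By the adjusted p alone, 7 genes were higher and 21 lower in A/J (32.9% and 33.2% of all genes), 4 and 13 in BALB/cJ (26.4% and 27.8%), 8 and 25 in C57BL/6J (33.5% and 34.6%) and 3 and 4 in CB6F1/J (23.9% and 23.6%). In the test over the 3 inbred strains no gene of 49 passed both limits (2.62% of all genes), while 2 passed the adjusted p alone (10.3% of all genes). Tfeb did so with a change less negative in BALB/cJ than in C57BL/6J by 0.73 ± 0.15 (adjusted p = 0.017). Atp6v1g2 passed with 0.87 ± 0.21 for A/J minus C57BL/6J (adjusted p = 0.021). With library size scaling the median of all genes moved to between -0.32 and -0.26. The called genes kept their direction, and the share of higher calls over all genes went from between 56.2% and 66.4% to between 37.8% and 41.7%. On that scale more genes of the set passed the adjusted p alone as lower in each strain. In TPM the share of the set fell from 4.66% to 3.39% in A/J and from 6.27% to 4.76% in BALB/cJ. It fell from 5.19% to 3.58% in C57BL/6J and from 5.33% to 4.25% in CB6F1/J.

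The AMLN diet addressed how Kupffer cells of the 3 strains differ in diet-induced liver disease, and calls in the set were made in C57BL/6J. In this strain 10 of 47 tested genes were called higher and 0 lower (8.02% and 5.78% of all genes), with a median of 0.26 against 0.01 over all genes. With library size scaling the counts were 10 and 1. The source of the C57BL/6J mice on the diet may differ from that of the untreated ones, as given above. In A/J 0 of 44 genes were called by edgeR (0.0504% of all genes, 3 genes of the set at an unadjusted p under 0.05). In BALB/cJ 0 of 44 were called (3.42%, 1 gene at an unadjusted p under 0.05). The set took 6.52% ± 0.233 of TPM in C57BL/6J on the diet and 4.93% untreated.

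Atp6v0d2 showed the largest change. It stood at 0.645 and 1.11 TPM in untreated C57BL/6J (12 and 18 reads) and at 96.1, 45.1, 55.9 and 66.5 TPM on the diet, a change of 6.46 ± 0.54 (edgeR adjusted p = 0.00018). In A/J the diet libraries stood at 11.6, 0.634, 5.05 and 6.43 TPM against 0.89 and 1.08, and in BALB/cJ at 1.25, 2.8 and 0.35 against 1.07 and 1.22. Every C57BL/6J diet library thus lay above every library of the other strains. Atp6v0a1 rose from 35.3 and 33.6 to between 98.5 and 134 TPM in C57BL/6J (2.02 ± 0.13). It stood at 24.5 to 38.7 TPM on the diet against 30.5 and 37.5 in A/J, and at 40.5 to 55 against 51.2 and 42.5 in BALB/cJ. Atp6v0c and its pseudogene were each higher by 1.13 ± 0.12 in C57BL/6J.

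Among the hydrolases, Ctsd (chr7:142375910-142387827) rose from 2140 and 2447 TPM to 6526, 6417, 5525 and 6391 in C57BL/6J (1.66 ± 0.12, edgeR adjusted p = 1.2e-05). Its diet libraries stood at 2872 to 4109 TPM in BALB/cJ, against 2230 and 2387 untreated, and at 2786 to 3878 TPM in A/J, against 2641 and 2576 untreated. Gla rose from 6.52 and 10.6 to between 24.8 and 33.9 TPM in C57BL/6J (2.05 ± 0.22). Gusb rose from 112 and 114 to between 261 and 317 TPM (1.53 ± 0.1), Ctsz from 424 and 484 to between 1108 and 1299 (1.62 ± 0.11) and Psap from 3121 and 3407 to between 5399 and 6532 (1.09 ± 0.12). In each the diet and untreated libraries of C57BL/6J did not overlap. Ctsw, a cathepsin of NK and T cells, rose from 1.22 and 1.95 to between 3.61 and 11.8 TPM (2.74 ± 0.62), and NK and T cell markers in the same libraries rose from 3.03 to 11.4 up to 18.5 to 54.7 TPM. Other well-expressed genes of the set stayed near their untreated level, as Ctsb (0.17 ± 0.1) and Lamp1 (0.04 ± 0.1). By the adjusted p alone 26 genes were higher and 7 lower (32% and 31.3% of all genes), the latter led by Atp6v1g1 (-0.96 ± 0.2).

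**Figure D5:**
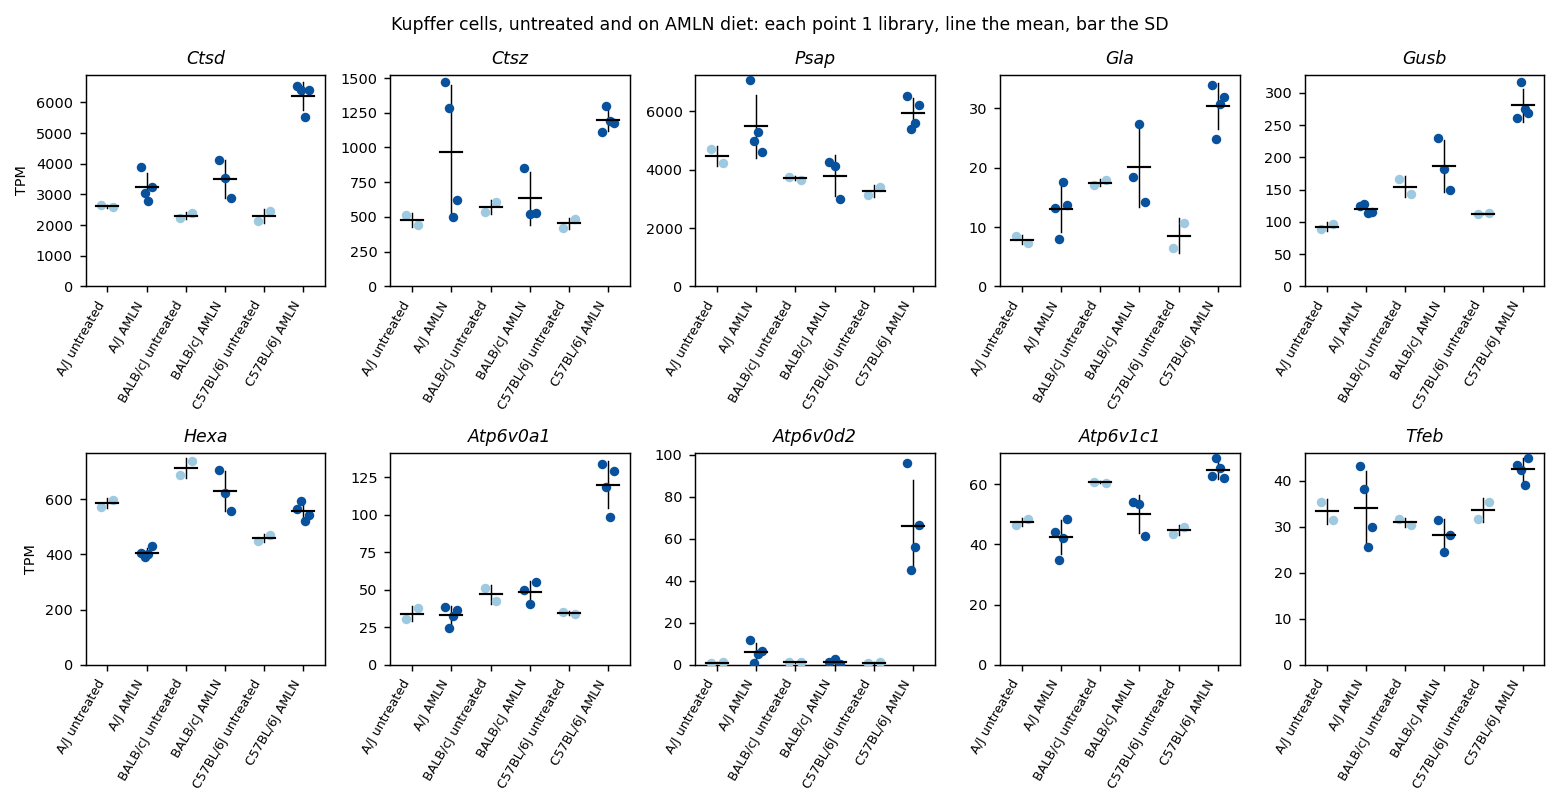
TPM (vertical axis, from 0) of 10 lysosomal genes in each untreated and AMLN diet Kupffer library of the 3 inbred strains (horizontal axis), each point 1 library, with lines for the mean and bars for the SD. C57BL/6J diet libraries stand above the untreated C57BL/6J libraries for Ctsd, Ctsz, Gla, Gusb, Psap, Atp6v0a1 and Atp6v0d2, with Atp6v0d2 at 45.1 to 96.1 TPM.

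The difference of the diet effect between strains was tested directly, and 6 of 48 tested genes were called (3.1% of all genes) and 7 passed the adjusted p alone (3.52%). Relative to C57BL/6J, the change in BALB/cJ was lower for Atp6v0a1 (-2.02 ± 0.29, edgeR adjusted p = 0.0023), Gla (-1.9 ± 0.42), Gusb (-1.3 ± 0.26) and Atp6v1c1 (-1.07 ± 0.2), and the change in A/J was lower for Ctsd (-1.19 ± 0.28). Atp6v0e2 was called with 2.28 ± 0.43 for A/J, but C57BL/6J libraries held only 4 to 21 reads of it. Hexa was the gene that passed the adjusted p alone (-0.88 ± 0.18 for A/J), with A/J falling from 573 and 598 to between 390 and 432 TPM and C57BL/6J at 449 and 469 untreated and 521 to 592 on the diet. These calls depended on single libraries. Leaving out each library in turn gave 1 to 11 called genes, and 2 were left without the diet libraries whose hepatocyte markers summed to over 1000 TPM. Those markers stood at 1350 to 2290 TPM in BALB/cJ, 99.9 to 3140 in A/J and 157 to 573 in C57BL/6J on the diet, and their part in the strain difference was not tested.

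NSG hosts gave donor cells of each strain the same environment. Between BALB/cJ and C57BL/6J donors 3 of 48 tested genes were called (3.63% of all genes), and 12 passed the adjusted p alone as higher in BALB/cJ and 4 as lower (6.09% and 5.43%). The called genes were Atp6v0e2 (6.5 ± 0.24, edgeR adjusted p = 8e-11), Atp6v0c (-4.81 ± 0.18) and Atp6v0c-ps2 (-5.05 ± 0.18). Atp6v0e2 stood at 42.5 to 45.5 TPM in BALB/cJ donor cells and 0.242 to 0.709 in C57BL/6J donor cells (3 to 8 reads). Atp6v0c stood at 2.26 to 3.24 and 76.1 to 84 TPM. Ctsh, called between the strains in their own livers, differed by -0.39 ± 0.1 here, which passed the adjusted p (0.017) and not the fold.

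Against untreated Kupffer cells of the same strain, cells from NSG hosts differed in 2 of 46 tested genes for BALB/cJ (4.82% of all genes) and 1 of 46 for C57BL/6J (8.51%). Ctsw rose in both, from 0.217 and 0.534 to 16.8, 29.6 and 8.94 TPM in BALB/cJ (5.6 ± 0.75, edgeR adjusted p = 0.0041) and from 1.22 and 1.95 to 30, 62.9 and 31.8 TPM in C57BL/6J (4.71 ± 0.52). Ctse rose in BALB/cJ from 0.293 and 0.06 to 16.6, 19.9 and 5.15 TPM (6.12 ± 1.01). NK and T cell markers in the same libraries summed to 80.5 to 434 TPM in BALB/cJ and 337 to 413 in C57BL/6J, against at most 11.4 untreated. Their part in these rises was not tested. By the adjusted p alone, 3 genes were higher and 11 lower in NSG hosts for BALB/cJ (8.44% and 8.61% of all genes), and 3 and 15 for C57BL/6J (18.7% and 18.4%). In both donors these included Neu1, the sialidase (-0.77 and -0.69), Mcoln1 (-0.49 and -0.72), Npc1 (-0.62 and -0.5) and Ctsl (-0.45 and -0.52). The BALB/cJ calls were lost without either untreated library, and without the first NSG library 1 remained.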

How the data were processed

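RNA-seq of poly(A) RNA was analysed from the processed tables of 85 libraries. The authors mapped reads with STAR to mm10 or to genomes rebuilt from each strain's variants and counted them over exons with HOMER (no versions are stated). The deposited tables of inbred liver cells hold raw read counts. Expected counts, with steps of 0.5, fill the deposited BMDM and CB6F1/J tables and were rounded to whole reads. The deposited TPM tables, made by the authors from the same reads, gave levels and a filter. Whether counting used strand is not stated.

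The genes and lists were chosen with earlier results of these data known. Every contrast was fitted on all genes with edgeR 4.0.16 (quasi-likelihood test, TMM, R 4.3.3) on genes that passed filterByExpr and a mean over 8 TPM in a group, and p-values were adjusted over all genes tested. LSECs, stellate cells, hepatocytes and strain differences of KLA and diet effects were tested over 3 strains, with the largest pairwise difference given. CB6F1/J Kupffer LPS values come from perfect reads (50.14 to 125.29 M per library) and allele tests from variant-spanning reads (4.76 to 13.08 M), with at least 10 per library on average. Values are given for selected called genes, and others are given by name or count. Alternatives were DESeq2 1.42.0, RLE scaling, no TPM filter, each library left out, a replicate block, 1 fit over all Kupffer libraries, C57BL/6J-mapped reads alone for hybrids, and, chosen after seeing the data, library size scaling and leaving out libraries with markers of other cells. Some of the tests were also run on simulated counts, but no allele, KLA or NSG test was among them. Since the labels do not tie each library to its own animal, p-values may cover technical spread only. Same-numbered libraries of different groups did not deviate together (every pair over 0.1 in 1 of 22 group pairs with 3 or more shared numbers). No 2 libraries agreed within counting noise.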

Additional observations from a re-analysis of the deposited data

Results flagged for a closer look

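Single libraries far from the rest were looked for in 61 sets of values, each a gene in a group of 4 to 10 libraries, and 2 were found. Chance alone gives about 1 in 20 sets, so 2 of 61 is not above that rate. Atp6v1b2 stood at 252 TPM in the second CB6F1/J LPS library, under 271 to 275 in the others. Ctsd stood at 5530 TPM in the third C57BL/6J library on the AMLN diet, under 6390 to 6530 in the others.

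The effect of a treatment differed between strains, by the test of the difference itself, for 9 genes. Under KLA these were Atp6v1g2 (0.87 for A/J minus C57BL/6J, edgeR adjusted p = 0.021) and Tfeb (0.73 for BALB/cJ minus C57BL/6J, 0.017). On the AMLN diet the difference of BALB/cJ from C57BL/6J was -2.02 for Atp6v0a1 (edgeR adjusted p = 0.0023), -1.07 for Atp6v1c1 (0.022), -1.9 for Gla (0.049) and -1.3 for Gusb (0.027). The difference of A/J from C57BL/6J was -1.19 for Ctsd (edgeR adjusted p = 0.048), -0.88 for Hexa (0.03) and 2.28 for Atp6v0e2 (0.019), the last on few reads in C57BL/6J.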

How the results depend on the processing

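The count of called genes of the set was compared over 34 contrasts. Of 191 alternatives other than leaving out a library, 179 stayed within 1.5 times the main count. Library size scaling gave 11 calls for LPS in BALB/cJ (main 7) and 13 in C57BL/6J (main 8). DESeq2 gave 1 call for the strain difference of LPS (main 0) and 10 for that of the diet (main 6), which had 2 without libraries high in hepatocyte markers. With the replicate number as a block, hepatocytes gave 7 calls over the strains (main 4), the AMLN diet in A/J 3 (main 0) and NSG donors 5 (main 3). The numbers do not pair the libraries, and the block moved no other count. A single fit over all Kupffer libraries gave 0 calls for A/J against BALB/cJ (main 1) and 1 for the diet in A/J (main 0). Without the TPM filter the diet in BALB/cJ gave 2 calls (main 0) and C57BL/6J cells in NSG hosts 2 (main 1). With each library left out in turn, 211 of 229 counts stayed within 1.5 times. The counts ranged from 0 to 1 for A/J against BALB/cJ Kupffer cells, 3 to 4 for BALB/cJ against C57BL/6J, 3 to 7 for hepatocytes, 5 to 8 for LPS in C57BL/6J, 0 to 2 for its strain difference, 1 to 2 for KLA in BALB/cJ, 1 to 2 in CB6F1/J, 1 to 11 for the strain difference of the diet and 0 to 2 for BALB/cJ cells in NSG hosts. Leaving out a library was not possible for allele tests in BMDMs, which have 2 libraries. Of 3687 alternative values of single called genes, 3546 stayed called, 141 kept the direction without the call and 0 reversed. The causes were not tested. Groups of 2 libraries limit what can be called, and genes with few reads, such as Atp6v0e2 in C57BL/6J, have uncertain folds.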

Other observations

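Lysosomal genes outside the set were measured in lists that were chosen with earlier results of these data known. Of 24 other hydrolases and activators, 13 of 23 tested were called higher in Kupffer cells than in LSECs and 0 lower (18.3% and 20% of all genes), led by Acp5, tartrate-resistant acid phosphatase (7.55), Pla2g15, a lysosomal phospholipase (5.52), and Gm2a, the activator of ganglioside breakdown (3.79). Against BMDMs 8 of 24 were higher, with Acp5 (6.19) first, and 3 were lower, with the sulfatases Arsb (-3.67) and Galns (-2.94) first (14.8% and 16.4% of all genes). After LPS 2 of 23 were higher and 5 lower in BALB/cJ (16% and 16.2% of all genes), 2 and 6 of 22 in C57BL/6J (18.3% and 19.7%) and 2 and 6 of 23 in CB6F1/J (18.7% and 20.7%). Sgsh, heparan N-sulfatase, fell in each (-3, -3.73 and -3.17), and Acp5 (1.49, 1.81 and 2.3) rose.

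Relatives of Tfeb moved the other way after LPS. Mitf rose by 2.38, 2.31 and 2.3 on the log2 scale in BALB/cJ, C57BL/6J and CB6F1/J, and Tfec by 2.34, 2.89 and 2.99. Tfec also rose after KLA in BMDMs of A/J (2.63), BALB/cJ (2.6), C57BL/6J (2.82) and CB6F1/J (2.56). Among membrane proteins the channel Mcoln2 rose by 4.95, 5.41 and 5.31 after LPS. Cstb, a cytosolic inhibitor of cysteine cathepsins, rose by 1.51, 2.01 and 1.97 after LPS and by 2.23 on the AMLN diet in C57BL/6J. On that diet Cd63 (6.66), Sort1, a sorting receptor for lysosomal proteins (3.62), Galns (1.9) and Arsb (1.09) were called higher too.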
